A study of Homo sapiens with 35 samples.

Results

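Differentiation genes of the intestinal epithelium were followed in HCT116, a cell line from a human colorectal carcinoma, on 35 arrays in 14 groups. The set held 33 genes listed by name as markers of colonocytes, goblet cells and intestinal identity, by a rule that names genes and uses no measured value. The list was drawn up with earlier results of these data known. A transcript cluster (a row of the array) was used only where the annotation gave it 1 gene symbol, and a gene with several such rows was read from the row with the highest mean over all arrays. Of the 33 genes, 30 had such a row, among 18404 genes tested in all. PHGR1 and HNF4A matched no row, and FABP1, the liver type fatty acid binding protein, was found only in a row shared with PRDM10.

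The cells carried a short hairpin RNA against CDK8 (shCDK8), a hairpin against CDK19 (shCDK19) or a non-target hairpin (shControl), each as 1 line. CDK8 and its paralog CDK19 are kinases of the Mediator complex, which links transcription factors to RNA polymerase II. In normal growth all 3 lines were measured on 3 arrays each. After 12 hours of 5-fluorouracil (5FU), a drug whose products inhibit thymidylate synthase, each line was measured on 2 arrays, and shControl cells in the solvent DMSO on 2 arrays. After 24 hours in low glucose medium each line had 3 arrays, and shControl cells in high glucose medium had 3. After 24 hours at 1% oxygen each line had 2 arrays. No knockdown line in DMSO or high glucose and no normoxic array of the hypoxia experiment was analysed here, so hypoxic shControl cells were set against shControl cells in normal growth. With 1 hairpin line per target, loss of the target and any other trait of that line cannot be told apart. Nothing in the labels says whether replicate arrays came from separate cultures, and p-values reflect the variation among arrays, which may be technical.

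The intestinal epithelium is renewed from stem cells at the crypt base, whose daughters become absorptive cells or secretory cells on their way to the surface. CDX1 and CDX2 set intestinal identity, ATOH1 starts the secretory fate, and KLF4 is high in differentiated, non-dividing cells of the upper crypt while KLF5 is high in dividing crypt cells. Absorptive colonocytes make carbonic anhydrases, anion exchangers, brush border proteins and keratin 20, and goblet cells make mucins and trefoil factors.

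Values are deposited log2 intensities with a floor of 4.32, the log2 of 20, and a change is a difference of log2 values. A gene was called changed at a Benjamini-Hochberg adjusted p below 0.05 in limma, adjusted over all 18404 genes. Statements that groups did not overlap describe named genes, mostly ones already called, and are no further test. The share of all genes without overlap was not counted. Between 8.48% and 9.97% of rows lay at the floor on an array, and correlations between arrays of a group ran from 0.976 to 0.998. The row shared by CDK8 and ADRA1B was 4.35-, 6.70-, 4.38- and 4.07-fold lower in shCDK8 cells than in shControl cells in normal growth, 5FU, low glucose and hypoxia. CDK19 was 2.83-, 2.11- and 2.95-fold lower in shCDK19 cells in the first 3 conditions, and in hypoxia the difference of -1.10 ± 0.14 (SE) missed the threshold (adjusted p = 0.0949).

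Among the 30 genes with values, 1 touched the floor: TSPAN8, a tetraspanin of the cell surface, on 1 array of shCDK19 cells in hypoxia. Other genes came close to the floor of 4.32. MS4A12, a colonocyte membrane protein, ran from 4.37 to 5.22, CLCA1, a secreted goblet cell protein, from 4.45 to 4.92, and MUC13, a transmembrane mucin, from 4.51 to 5.64. CDH17, an intestinal cadherin, ran from 4.64 to 5.25, and SLC26A3, the chloride-bicarbonate exchanger of the colon surface, from 4.66 to 5.09. A floor shortens differences of such dim rows. The intestinal regulator CDX2 ran from 8.44 to 9.15 over the 35 arrays, and CDX1 from 7.15 to 8.25. The epithelial markers EPCAM (10.58 to 12.41) and CDH1 (8.99 to 11.82) were well off the floor on all arrays. Over the 11 comparisons with a control, 19 of the 30 genes were called at least once: 4 of 5 transcription factors, 9 of 12 colonocyte and enterocyte genes, 2 of 5 secretory genes and 4 of 8 adhesion and surface genes. The 11 never called there, nor in the 4 comparisons of shCDK8 with shCDK19 cells, were CDX2, CEACAM5, CEACAM7, TFF1, TFF3, SLC26A3, GUCA2B, AQP8, CDH17, GPA33 and CLCA1. The share of all 18404 genes called at least once was not counted, so these counts have no background beside them. Single comparisons with a control called from 0.228% to 47.8% of all genes. Those called and at least 2-fold different were 4: CEACAM1, KLF4, CA2 and SLC26A2.

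**Figure D1:**
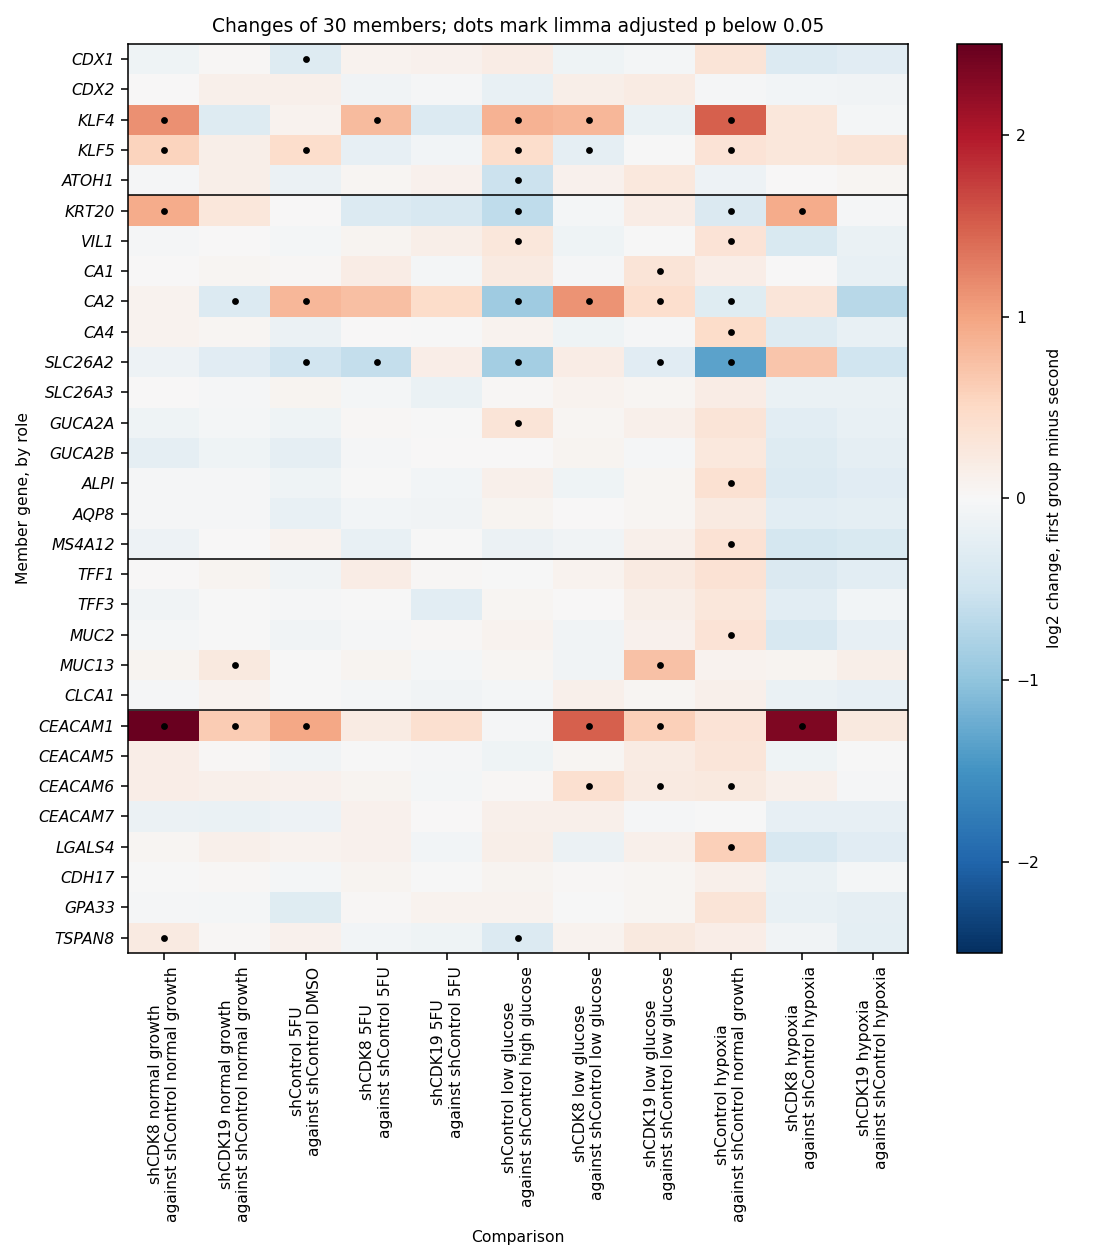
Log2 change of 30 intestinal differentiation genes (rows, by role) in 11 comparisons (columns, first group minus second). Red is higher and blue lower in the first group, and dots mark genes with limma adjusted p below 0.05. Most rows are pale, and the dark cells belong to CEACAM1, KLF4, CA2, SLC26A2 and KRT20.

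Some arrays stood apart. On replicate 1 of shControl hypoxia the 30 genes lay a median of 0.35 above their own medians over all arrays, 25 of 30 were above, and 14 of 30 had their highest value of all 35 arrays there. Of all 18404 genes, those dimmer than the median gene lay 0.32 higher and the brighter ones 0.21 lower on that array, and 25 of the 30 genes belong to the dimmer ones. On replicate 1 of shCDK8 normal growth the median deviation was 0.20 with 26 of 30 above, and on replicate 1 of shControl DMSO it was 0.16 with 21 of 30 above. Of all genes, the dimmer ones deviated by 0.15 and the brighter ones by -0.17 on that DMSO array. On the shCDK8 array they deviated by 0.10 and -0.08. The DMSO array was left out only in fits that left out 1 array. The part of these shifts in the results was not tested. Below, the 2 arrays that stood apart are replicate 1 of shControl hypoxia and of shCDK8 normal growth. Counts are given with and without them where they differ by over 1.5 times.

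**Figure D2:**
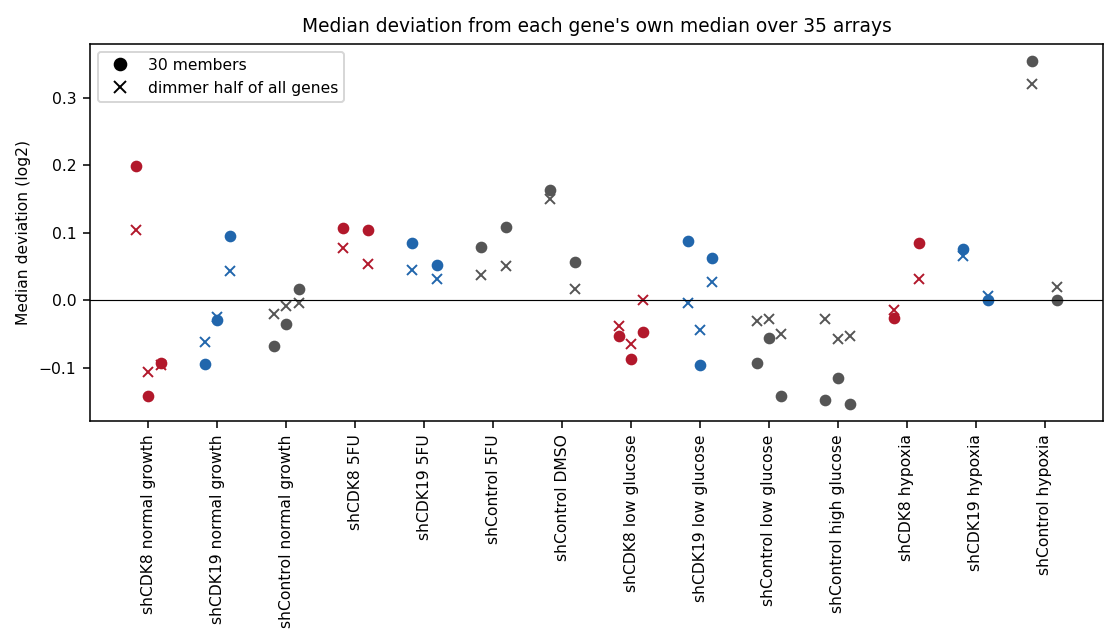
Median deviation (log2) of the 30 genes (filled points) and of all genes dimmer than the median gene (crosses) on each of 35 arrays from each gene's own median over all arrays, by group. Replicate 1 of shControl hypoxia is highest in both measures, at 0.35 and 0.32.

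The first comparison was shCDK8 with shControl cells in normal growth. KLF4, KLF5, KRT20, CEACAM1 and TSPAN8 rose in shCDK8 cells and no gene of the set fell, so 5 of 30 were called, against a background of 24.9% of all genes. The median change of the 30 was 0.00 and that of all genes -0.02. The other 25 genes lay between -0.22 (GUCA2B, uroguanylin) and 0.17 (CEACAM5, carcinoembryonic antigen).

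KLF4, a zinc finger factor that restrains proliferation in the gut epithelium, had log2 values of 9.15, 9.34 and 9.36 in shCDK8 cells, against 8.11, 8.17 and 8.16 in shControl cells. All shCDK8 values lay above all shControl values, and the change was 1.14 ± 0.08 (SE, n = 3 each), 2.20-fold (adjusted p = 6.68e-05, limma). KLF5, the related factor of dividing crypt cells, had 10.93, 10.92 and 10.93 in shCDK8 cells, against 10.30, 10.36 and 10.42 in shControl cells. KLF5 was thus higher by 0.57 ± 0.04 (adjusted p = 5.16e-05), in the same cells in which KLF4 was higher.

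KRT20, the keratin of differentiated surface cells, had 7.74, 7.93 and 8.05 in shCDK8 cells, against 6.95, 6.98 and 7.02 in shControl cells, a change of 0.92 ± 0.08 (1.90-fold, adjusted p = 0.000157). CEACAM1, a cell adhesion molecule of the apical surface, had 8.40, 8.91 and 8.54 in shCDK8 cells, against 6.02, 6.28 and 6.16 in shControl cells. With 2.46 ± 0.13 (5.52-fold, adjusted p = 1.33e-05) it had the largest change of the set in any of the 11 comparisons. TSPAN8 had 4.71, 4.66 and 4.57 in shCDK8 cells, against 4.42, 4.44 and 4.38 in shControl cells, close to the floor (0.23 ± 0.05, adjusted p = 0.0153). The CEACAM genes are close paralogs on chromosome 19, and whether probes of one detect another was not tested. In this comparison CEACAM5, CEACAM6 and CEACAM7 were not called.

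The 5 calls of this comparison became 10 without replicate 1 of shCDK8 normal growth. These were 6 higher, with CEACAM6 (0.23 ± 0.05) added, and 4 lower: GUCA2B (-0.43 ± 0.08), TFF1, a trefoil factor (-0.23 ± 0.07), MS4A12 (-0.22 ± 0.06), and MUC2, the main goblet cell mucin (-0.20 ± 0.06).

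The promoters of CEACAM1, KLF4 and KRT20, the genes of the set with the largest changes in shCDK8 cells in normal growth, are shown so that motifs of factors named here can be looked up in them. They come from RefSeq on GRCh38.p14 and hold 300 bases around each gene's start, most of them upstream, written 5′ to 3′ on the gene's strand. The table matched 24 of the 33 genes, with 27 promoters, among 35116 promoters in all, and CA2 was not among those matched. Capitals mark exact matches, on either strand, to the core of the hypoxia response element ACGTG, the TCF/LEF motifs CTTTGA and CTTTGT, the CDX core TTTAT and the GC box GGGCGG bound by KLF and SP factors. ACGTG overlaps its own reverse strand match where it stands in CACGTG, and no match to one motif overlaps a match to another in the promoters printed. CEACAM1 lies at chr19:42528432-42528731, minus strand, KRT20 at chr17:40885193-40885492, minus strand, and KLF4 at chr9:107489720-107490019, minus strand.
CEACAM1: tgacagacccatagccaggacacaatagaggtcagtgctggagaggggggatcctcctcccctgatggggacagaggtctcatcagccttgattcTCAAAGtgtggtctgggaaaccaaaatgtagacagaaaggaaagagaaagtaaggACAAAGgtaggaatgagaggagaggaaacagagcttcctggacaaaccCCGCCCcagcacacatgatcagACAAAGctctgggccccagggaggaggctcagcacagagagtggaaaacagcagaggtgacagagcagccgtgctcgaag
KRT20: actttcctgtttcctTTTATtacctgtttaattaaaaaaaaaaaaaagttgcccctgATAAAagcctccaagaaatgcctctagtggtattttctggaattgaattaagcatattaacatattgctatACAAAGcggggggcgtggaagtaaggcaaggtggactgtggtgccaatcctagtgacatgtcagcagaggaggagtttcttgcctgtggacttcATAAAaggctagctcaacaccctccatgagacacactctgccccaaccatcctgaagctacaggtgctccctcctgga
KLF4: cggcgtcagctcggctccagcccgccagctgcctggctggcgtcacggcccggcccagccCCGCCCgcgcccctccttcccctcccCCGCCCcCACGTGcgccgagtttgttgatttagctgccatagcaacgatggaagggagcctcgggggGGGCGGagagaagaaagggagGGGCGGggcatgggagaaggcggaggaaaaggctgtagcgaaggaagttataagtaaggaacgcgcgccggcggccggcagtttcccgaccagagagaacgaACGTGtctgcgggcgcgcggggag
In CEACAM1 the capitals are 3 TCF/LEF matches and 1 GC box, in KRT20 3 CDX cores and 1 TCF/LEF match, and in KLF4 4 GC boxes and 3 matches to ACGTG, of which 2 are the strands of the same CACGTG. A match to a TCF/LEF motif was found in 26.2% of all promoters, to the CDX core in 34.9%, to ACGTG in 21.4% and to the GC box in 45.0%, and in 10, 12, 7 and 10 of the 27 promoters of the set. These are matches of letters and not binding sites.

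Other lists of epithelial genes were counted in the same comparison of shCDK8 with shControl cells in normal growth. Of 14 measured genes of general epithelial identity, 2 were higher and 10 lower, with a median of -0.54. GRHL2, a factor that maintains epithelial junction genes, was lower by -2.46 ± 0.05, CDH1, E-cadherin, by -1.70 ± 0.07, EPCAM, an adhesion molecule, by -1.31 ± 0.04, and ST14, the protease matriptase, by -1.29 ± 0.07. Of 26 brush border genes 1 was higher and 3 lower. DPP4, a brush border peptidase, was lower by -2.56 ± 0.10. Of 13 lineage transcription factors 5 were higher and 2 lower. EHF, an epithelial ETS factor, was higher by 4.14 ± 0.13 and PPARG, a nuclear receptor of colonocytes, by 2.54 ± 0.08. Of 14 stem and crypt base genes 4 were higher and 4 lower. SOX9 was higher by 1.02 ± 0.05 and CD44 by 0.98 ± 0.06, and PROM1 was lower by -0.68 ± 0.13. Of 23 other goblet, Paneth and enteroendocrine genes 2 were higher and 0 lower, and of 11 gastric and squamous genes 1 was higher, the basal keratin KRT5, and 1 lower. Of all genes 24.9% were called. The epithelial identity, stem and crypt base, and lineage factor lists held a larger share of called genes. The brush border, the goblet, Paneth and enteroendocrine, and the gastric and squamous lists held a smaller one. These lists are small, and whether a share differed from the background was not tested. Some of their genes lay at the floor, such as GKN1 on 35 of 35 arrays and AGR3 on 31.

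Among 15 measured markers of fibroblasts, leukocytes and endothelium, 2 were higher and 1 lower in shCDK8 cells in normal growth. LYZ, the lysozyme of Paneth cells and leukocytes, was higher by 5.44 ± 0.11, with means of 10.59 ± 0.18 in shCDK8 cells and 5.15 ± 0.05 in shControl cells (SD, n = 3 each). The leukocyte marker PTPRC was at the floor on 13 of 35 arrays and at most 4.62, and the fibroblast markers DCN and LUM were at the floor on 23 and 33. The summed linear intensity of the 15 markers ran from 3790 to 3833 in shCDK8 cells and from 2041 to 2057 in shControl cells. Without LYZ and CD68, a lysosomal protein, it ran from 973 to 1324 in shCDK8 cells and from 1247 to 1296 in shControl cells.

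In shCDK19 cells in normal growth, set against shControl cells, CEACAM1 and MUC13 rose and CA2 fell, 3 of 30 genes against a background of 7.07%. CEACAM1 had 6.75, 6.75 and 6.88 in shCDK19 cells, against 6.02, 6.28 and 6.16 in shControl cells (0.64 ± 0.13, adjusted p = 0.0264). MUC13 had 4.71, 4.88 and 4.79 in shCDK19 cells, against 4.61, 4.51 and 4.54 in shControl cells (0.24 ± 0.05, adjusted p = 0.0366), near the floor. CA2, the fast cytosolic carbonic anhydrase of surface cells, had 9.63, 9.65 and 9.56 in shCDK19 cells, against 10.03, 9.88 and 9.97 in shControl cells (-0.34 ± 0.05, adjusted p = 0.00822). The groups did not overlap for any of the 3 genes. The CA2 call held in all 13 alternatives, while that of CEACAM1 held in 6 of 13 and that of MUC13 in 5 of 13. The shCDK8 arrays enter this fit only through the shared estimate of the spread. Without replicate 1 of shCDK8 normal growth 7 genes were called, with the changes themselves as before. Calls among all genes rose from 1301 to 2531. KRT20 (0.28 ± 0.05) and KLF5 (0.15 ± 0.04) were higher and KLF4 (-0.33 ± 0.07) and SLC26A2 (-0.28 ± 0.06) lower in addition. In shCDK19 cells 8 of 14 epithelial identity genes were higher and 0 lower, with CDH1 at 0.42 ± 0.07, CLDN3, a claudin, at 0.42 ± 0.07 and KRT18, a simple epithelial keratin, at 0.39 ± 0.06. EHF was higher by 4.47 ± 0.13, and DPP4 by 1.05 ± 0.10. In 5FU DPP4 went the other way, with means of 6.957 in shCDK19 cells and 9.285 in shControl cells (n = 2 each). Its means in shCDK19 cells in low glucose (9.57) and hypoxia (9.92) lay above those of shControl cells (8.96 and 8.75).

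Set directly against shCDK19 cells in normal growth, shCDK8 cells had 6 genes higher and 1 lower, 7 of 30 against 26.1% of all genes. KLF4 was higher in shCDK8 cells by 1.46 ± 0.08, and its values in shCDK19 cells (7.92, 7.88 and 7.66) lay below all 3 shControl values. CEACAM1 was higher in shCDK8 cells by 1.83 ± 0.13, KRT20 by 0.65 ± 0.08, CA2 by 0.44 ± 0.05, KLF5 by 0.41 ± 0.04 and TSPAN8 by 0.21 ± 0.05. MUC13 was lower in shCDK8 cells (-0.18 ± 0.05, adjusted p = 0.0430), a call that held in 4 of 13 alternatives. Without replicate 1 of shCDK8 normal growth 13 genes were called, 7 higher and 6 lower. SLC26A2 (0.35 ± 0.07) joined the higher ones, and GUCA2B (-0.33 ± 0.08), TFF1 (-0.29 ± 0.07), ATOH1, the secretory lineage factor (-0.29 ± 0.07), MS4A12 (-0.23 ± 0.06) and MUC2 (-0.19 ± 0.06) the lower ones. With array weights 16 were called, 8 higher and 8 lower, and 10745 of all genes.

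**Figure D3:**
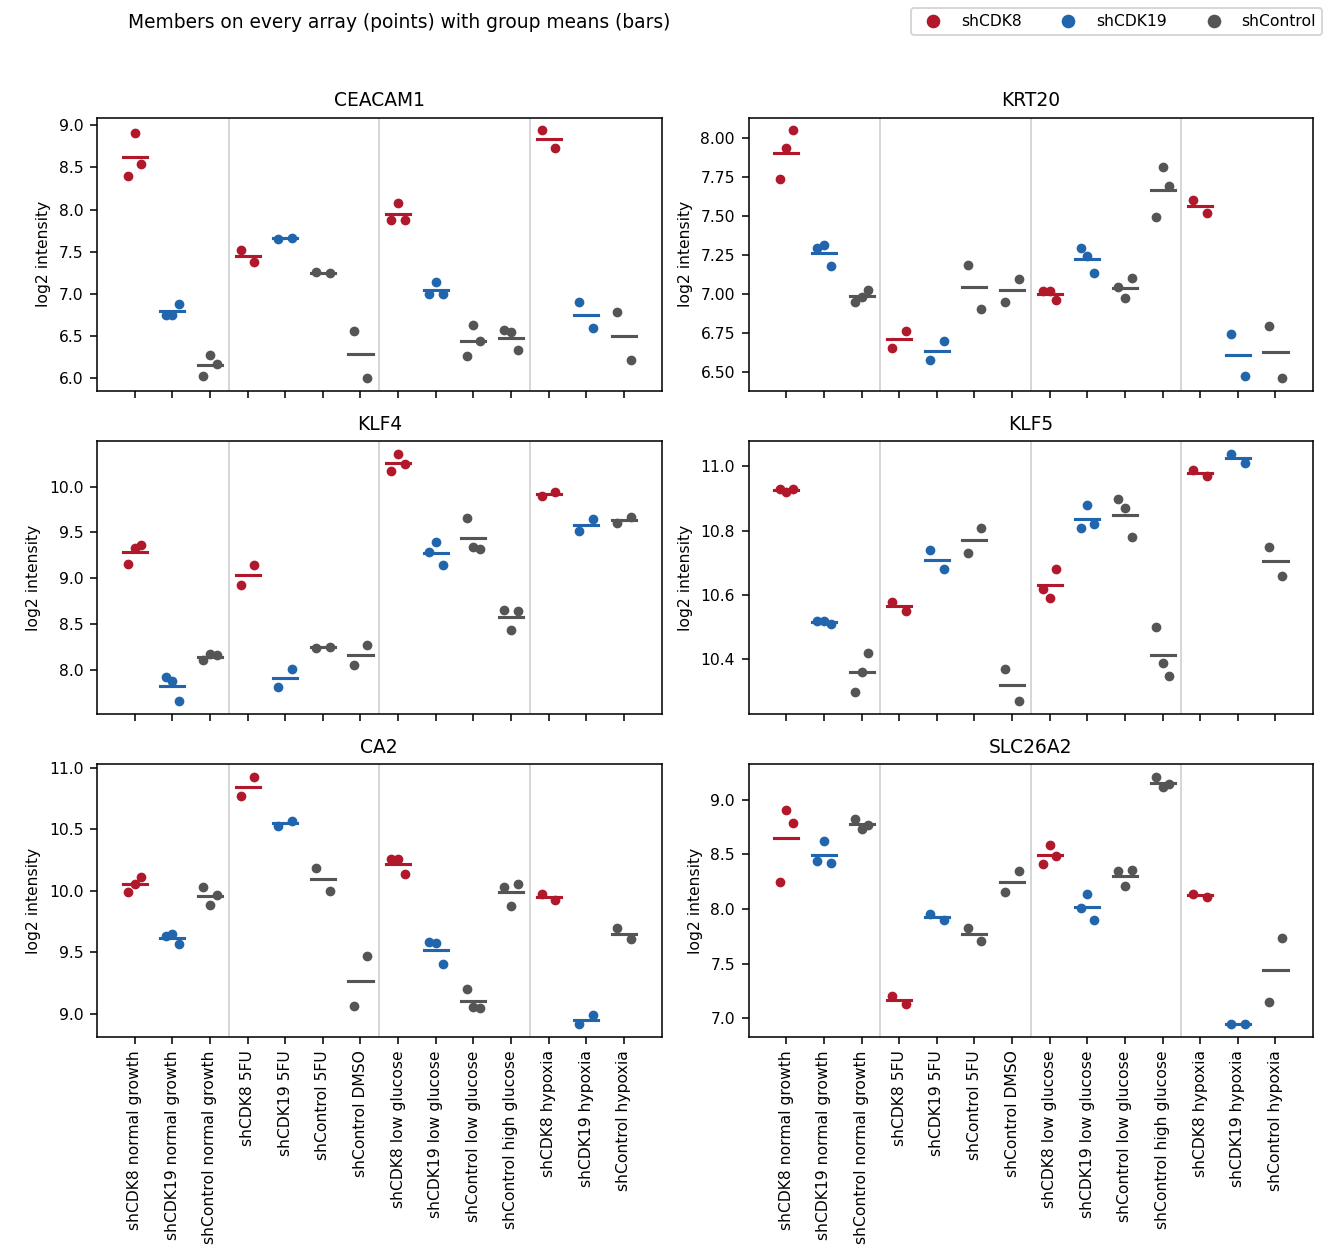
Log2 intensity of CEACAM1, KRT20, KLF4, KLF5, CA2 and SLC26A2 on each of the 35 arrays (points) with group means (bars), for shCDK8 (red), shCDK19 (blue) and shControl (grey) cells in 14 groups. CEACAM1 is highest in shCDK8 cells in normal growth and hypoxia, KLF4 in shCDK8 cells in low glucose, and SLC26A2 is lowest in shCDK19 cells in hypoxia.

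In shControl cells, 5FU for 12 hours was followed by higher KLF5, CEACAM1 and CA2 and lower CDX1 and SLC26A2 than DMSO, 5 of 30 genes against 11.5% of all genes. KLF5 had 10.73 and 10.81 in 5FU, against 10.37 and 10.27 in DMSO (0.45 ± 0.06, adjusted p = 0.0121). CEACAM1 had 7.26 and 7.24 in 5FU, against 6.56 and 6.00 in DMSO (0.97 ± 0.18, adjusted p = 0.0260). CA2 had 10.19 and 10.00 in 5FU, against 9.07 and 9.47 in DMSO (0.83 ± 0.15, adjusted p = 0.0240). For these 3 genes both 5FU arrays lay above both DMSO arrays. SLC26A2, a sulfate transporter made in colonocytes, had 7.83 and 7.71 in 5FU, against 8.15 and 8.34 in DMSO (-0.48 ± 0.08, adjusted p = 0.0227). CDX1, the homeobox factor, had 7.73 and 7.80 in 5FU, against 8.08 and 8.07 in DMSO (-0.31 ± 0.06, adjusted p = 0.0291), and this call held in 1 of 10 alternatives. KLF4, with 8.24 and 8.26 in 5FU and 8.05 and 8.28 in DMSO, was not called. The 5 calls were lost without either 5FU array, and calls among all genes fell as well. Such fits assume that the remaining array varies like the other groups.

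In 5FU, shCDK8 cells differed from shControl cells in 2 of 30 genes, against 3.5% of all genes. KLF4 rose to 8.93 and 9.15 in shCDK8 cells, against 8.24 and 8.26 in shControl cells (0.79 ± 0.12, adjusted p = 0.0304). SLC26A2 fell to 7.20 and 7.13 in shCDK8 cells, against 7.83 and 7.71 in shControl cells (-0.60 ± 0.08, adjusted p = 0.0247). The groups did not overlap for either gene. CEACAM1 had 7.53 and 7.38 in shCDK8 cells, against 7.26 and 7.24 in shControl cells, which did not pass the threshold (0.20 ± 0.18, adjusted p = 0.698). KRT20 had 6.65 and 6.76 in shCDK8 cells, against 7.18 and 6.90 in shControl cells (-0.33 ± 0.11, adjusted p = 0.220). CA2 had 10.77 and 10.93 in shCDK8 cells, against 10.19 and 10.00 in shControl cells (0.75 ± 0.15, adjusted p = 0.0606). Both calls were lost when any 1 of the 4 arrays was left out. LYZ averaged 5.22 ± 0.21 in shCDK8 cells and 5.09 ± 0.00 in shControl cells in 5FU (SD, n = 2 each), while 6 of 14 epithelial identity genes were lower and 0 higher.

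In shCDK19 cells in 5FU 0 of 30 genes were called in limma, against 0.837% of all genes, and 4 had an unadjusted p below 0.05. The smallest p among them belonged to KRT20, with 6.57 and 6.70 in shCDK19 cells, against 7.18 and 6.90 in shControl cells (-0.41 ± 0.11, adjusted p = 0.206), and the next to CA2 (0.45 ± 0.15, adjusted p = 0.262). A fit of all 35 arrays called 2 of the 30, and analysis of variance without moderation called none of them. Between shCDK8 and shCDK19 cells in 5FU, KLF4 was higher by 1.12 ± 0.12 and SLC26A2 lower by -0.76 ± 0.08 in shCDK8 cells, 2 of 30 genes against 5.14%. These calls held in 6 of 10 alternatives for KLF4 and 5 of 10 for SLC26A2. Leaving out any 1 of the 4 arrays left 0 or 1 of them, and analysis of variance without moderation left 0.

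Low glucose for 24 hours changed 9 of 30 genes in shControl cells relative to high glucose, 4 higher and 5 lower, against 31.2% of all genes. KLF4 had 9.66, 9.34 and 9.32 in low glucose, against 8.66, 8.44 and 8.64 in high glucose (0.86 ± 0.10, adjusted p = 0.000126). KLF5 had 10.90, 10.87 and 10.78 in low glucose, against 10.50, 10.39 and 10.35 in high glucose (0.44 ± 0.05, adjusted p = 9.28e-05). ATOH1 had 6.56, 6.26 and 6.80 in low glucose, against 7.00, 7.18 and 7.08 in high glucose (-0.54 ± 0.13, adjusted p = 0.00930). The groups did not overlap for any of these 3 factors.

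Among colonocyte genes, CA2 had 9.20, 9.06 and 9.05 in low glucose, against 10.03, 9.88 and 10.06 in high glucose, a change of -0.89 ± 0.07 (adjusted p = 9.06e-06). SLC26A2 had 8.35, 8.21 and 8.35 in low glucose, against 9.21, 9.12 and 9.14 in high glucose (-0.85 ± 0.07, adjusted p = 1.09e-05). KRT20 had 7.04, 6.97 and 7.10 in low glucose, against 7.50, 7.81 and 7.69 in high glucose (-0.63 ± 0.08, adjusted p = 0.000139). All low glucose values of these 3 genes lay below all high glucose values. GUCA2A, the peptide guanylin, was higher by 0.31 ± 0.08 and VIL1, the microvillus protein villin, by 0.28 ± 0.08, and TSPAN8 was lower by -0.34 ± 0.09. The 6 transcription factor and colonocyte changes above 0.40 in size held in all 12 alternatives, while that of GUCA2A and that of TSPAN8 held in 10 and that of VIL1 in 8. Of 26 other brush border genes 1 was higher and 5 lower, with DPP4 at -0.96 ± 0.09 and AQP3, an aquaglyceroporin, at -0.69 ± 0.07.

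In low glucose 4 genes of the set rose and 1 fell in shCDK8 cells relative to shControl cells, 5 of 30 against 22.3% of all genes. CEACAM1 had 7.88, 8.08 and 7.87 in shCDK8 cells, against 6.26, 6.63 and 6.44 in shControl cells (1.50 ± 0.10, 2.83-fold, adjusted p = 3.76e-06). CA2 had 10.26, 10.26 and 10.14 in shCDK8 cells, against 9.20, 9.06 and 9.05 in shControl cells (1.12 ± 0.07, 2.17-fold, adjusted p = 2.17e-06). The shCDK8 values of CA2 in low glucose also lay above all 3 values of shControl cells in high glucose. KLF4 had 10.17, 10.36 and 10.25 in shCDK8 cells, against 9.66, 9.34 and 9.32 in shControl cells (0.82 ± 0.10, adjusted p = 0.000284), the highest group mean of KLF4 in the series. CEACAM6, a glycolipid-anchored CEACAM, was higher by 0.40 ± 0.04. KLF5 had 10.62, 10.59 and 10.68 in shCDK8 cells, against 10.90, 10.87 and 10.78 in shControl cells (-0.22 ± 0.05, adjusted p = 0.00944). All 5 calls held in all 12 alternatives. KRT20 was not called (-0.04 ± 0.08, adjusted p = 0.791). SLC5A1, the sodium-glucose cotransporter of the brush border, was higher by 2.88 ± 0.13, with means of 8.59 ± 0.08 in shCDK8 cells and 5.72 ± 0.06 in shControl cells (SD, n = 3 each), and DPP4 was lower by -2.99 ± 0.09. Of the epithelial identity genes 2 were higher and 4 lower.

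Of the 30 genes, 5 rose and 1 fell in shCDK19 cells in low glucose relative to shControl cells, 6 of 30 against 19.9% of all genes. MUC13 had 5.64, 5.51 and 5.24 in shCDK19 cells, against 4.71, 4.76 and 4.73 in shControl cells (0.73 ± 0.10, adjusted p = 0.000536), and these were its 3 highest values of all 35 arrays. CEACAM1 had 6.99, 7.14 and 6.99 in shCDK19 cells, against 6.26, 6.63 and 6.44 in shControl cells (0.60 ± 0.10, adjusted p = 0.00241). CA2 had 9.58, 9.57 and 9.41 in shCDK19 cells, against 9.20, 9.06 and 9.05 in shControl cells (0.42 ± 0.07, adjusted p = 0.00223). CA1, a second cytosolic carbonic anhydrase, was higher by 0.32 ± 0.08 and CEACAM6 by 0.22 ± 0.04, and SLC26A2 was lower by -0.29 ± 0.07. The calls of CA1 and SLC26A2 held in 8 and 9 of 12 alternatives and the other 4 in all 12.

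Set directly against shCDK19 cells in low glucose, shCDK8 cells had 5 genes higher and 4 lower, 9 of 30 against 26%. KLF4 was higher by 0.99 ± 0.10, CEACAM1 by 0.90 ± 0.10, CA2 by 0.70 ± 0.07, SLC26A2 by 0.48 ± 0.07 and CEACAM6 by 0.18 ± 0.04. MUC13 was lower by -0.82 ± 0.10, CA1 by -0.35 ± 0.08, MS4A12 by -0.21 ± 0.06 and KLF5 by -0.21 ± 0.05. The shCDK8 and shCDK19 comparisons with shControl cells share the shControl arrays.

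Hypoxic shControl cells, set against shControl cells in normal growth, had 9 genes higher and 3 lower, 12 of 30 against 47.8% of all genes. The 2 groups belong to separate experiments, so hypoxia and experiment cannot be told apart. The median change of the 30 was 0.28, against 0.06 for all genes, with 24 of 30 above 0. KLF4 had 9.61 and 9.67 in hypoxia, against 8.11, 8.17 and 8.16 in normal growth, a change of 1.49 ± 0.11 (2.82-fold, adjusted p = 1.26e-10). KLF5 had 10.75 and 10.66 in hypoxia, against 10.30, 10.36 and 10.42 in normal growth (0.35 ± 0.05, adjusted p = 4.40e-06). SLC26A2 had 7.14 and 7.73 in hypoxia, against 8.82, 8.73 and 8.77 in normal growth, a change of -1.34 ± 0.14 (2.53-fold lower, adjusted p = 6.48e-08). For these 3 genes the hypoxic and normal growth arrays did not overlap, although the 2 hypoxic values of SLC26A2 lay apart. KRT20 had 6.79 and 6.46 in hypoxia, against 6.95, 6.98 and 7.02 in normal growth (-0.36 ± 0.11, adjusted p = 0.00941), and CA2 was lower by -0.31 ± 0.09.

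The other 7 calls in hypoxia were all higher. LGALS4, a lectin of the intestinal epithelium, had 8.19 and 7.32 in hypoxia, against 7.07, 7.20 and 7.23 in normal growth (0.59 ± 0.20, adjusted p = 0.0179). CA4, the membrane carbonic anhydrase, was higher by 0.45 ± 0.13, ALPI, intestinal alkaline phosphatase, by 0.38 ± 0.13, MS4A12 by 0.37 ± 0.10, MUC2 by 0.35 ± 0.13, VIL1 by 0.34 ± 0.09 and CEACAM6 by 0.25 ± 0.08. Without the 2 arrays that stood apart, these 7 were not called, and the calls were 5: KLF4 (1.53 ± 0.13) and KLF5 (0.30 ± 0.06) higher, and SLC26A2 (-1.04 ± 0.09), KRT20 (-0.53 ± 0.12) and CA2 (-0.35 ± 0.11) lower. The 15 markers of fibroblasts, leukocytes and endothelium moved the same way with those arrays, with 6 higher and 0 lower and a median of 0.33, and with 3 higher and a median of 0.08 without them. Their summed intensity was 3752 and 4322 on the 2 arrays of shControl hypoxia, against 2041 to 2057 in shControl normal growth. Without LYZ and CD68 it was 1655 and 2029, against 1247 to 1296. The sum of all 15 in shCDK8 cells was 4212 to 4233 in hypoxia and 3790 to 3833 in normal growth. In shCDK19 cells it was 3501 to 3539 in hypoxia and 1878 to 2013 in normal growth. Without LYZ and CD68, the shCDK8 sum was 1157 to 1256 in hypoxia and 973 to 1324 in normal growth. The shCDK19 sum without them was 1467 to 1550 in hypoxia and 1128 to 1266 in normal growth. With array medians subtracted 19 of the 30 genes were called, 16 higher and 3 lower. The row shared by PRDM10 and FABP1 was fitted, and its p-value adjusted, among all 32321 rows. It was also higher in hypoxia (0.33 ± 0.06, adjusted p = 0.000298, limma) and in no other comparison passed the threshold. This row had 5.304 and 5.073 in hypoxia, against 4.895, 4.82 and 4.87 in normal growth, near the floor. The higher hypoxic value came from the array that stood apart, and no fit of this row without that array was made.

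The promoter of SLC26A2, which had the largest fall of the set, lies at chr5:149960508-149960807 on the plus strand of GRCh38.p14 (RefSeq).
SLC26A2: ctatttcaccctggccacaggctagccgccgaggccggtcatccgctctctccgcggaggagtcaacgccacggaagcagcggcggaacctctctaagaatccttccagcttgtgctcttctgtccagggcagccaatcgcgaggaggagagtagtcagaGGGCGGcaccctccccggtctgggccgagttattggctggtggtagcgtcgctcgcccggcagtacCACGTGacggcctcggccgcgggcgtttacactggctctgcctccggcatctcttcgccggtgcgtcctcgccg
Its capitals are 1 GC box and 2 matches to ACGTG on the strands of the same CACGTG. The promoter of KLF4, which rose in hypoxia, holds the same CACGTG letters.

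In hypoxia, shCDK8 cells had higher CEACAM1 and KRT20 than shControl cells, 2 of 30 genes against 7.3% of all genes. CEACAM1 had 8.94 and 8.73 in shCDK8 cells, against 6.79 and 6.21 in shControl cells (2.34 ± 0.23, 5.05-fold, adjusted p = 0.0133). KRT20 had 7.61 and 7.52 in shCDK8 cells, against 6.79 and 6.46 in shControl cells (0.94 ± 0.16, 1.91-fold, adjusted p = 0.0404). The groups did not overlap for either gene. KLF4 had 9.90 and 9.94 in shCDK8 cells, against 9.61 and 9.67 in shControl cells (0.28 ± 0.09, adjusted p = 0.129). SLC26A2 had 8.14 and 8.11 in shCDK8 cells, against 7.14 and 7.73 in shControl cells (0.69 ± 0.20, adjusted p = 0.120). Both calls were lost when either shCDK8 array was left out. Without replicate 2 of shControl hypoxia the array that stood apart is the only control, and calls rose in the set and among all genes. Without the array that stood apart, CEACAM1 (2.62 ± 0.17), KRT20 (1.10 ± 0.14) and SLC26A2 (0.39 ± 0.06) were called. LYZ averaged 10.49 ± 0.04 in shCDK8 cells and 5.59 ± 0.20 in shControl cells in hypoxia (SD, n = 2 each), and 8 of 14 epithelial identity genes were lower and 2 higher, with GRHL2 at -1.87 ± 0.20 and EPCAM at -1.13 ± 0.09.

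In shCDK19 cells in hypoxia 0 of 30 genes were called in limma, against 0.228% of all genes, and 3 had an unadjusted p below 0.05. CA2 had 8.91 and 8.99 in shCDK19 cells, against 9.69 and 9.61 in shControl cells (-0.70 ± 0.08, adjusted p = 0.0814), the lowest group mean of CA2 in the series. KLF5 had 11.04 and 11.01 in shCDK19 cells, against 10.75 and 10.66 in shControl cells (0.32 ± 0.08, adjusted p = 0.225). Of the 30 genes 26 lay below 0, with a median of -0.18, against -0.05 for all genes, and the shControl array that stood apart is 1 of the 2 controls here. A fit of all 35 arrays called 4 of the 30, and without replicate 2 of shControl hypoxia 8 were called. Set against shCDK19 cells in hypoxia, shCDK8 cells had 4 genes higher and 0 lower, against 12.4% of all genes: CEACAM1 (2.09 ± 0.23), SLC26A2 (1.18 ± 0.20), CA2 (1.00 ± 0.08) and KRT20 (0.96 ± 0.16). SLC26A2 had 6.95 and 6.94 in shCDK19 cells, its lowest group mean, and CA2 had 9.97 and 9.93 in shCDK8 cells. These 4 calls were lost when any 1 of the 4 arrays was left out.

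**Figure D4:**
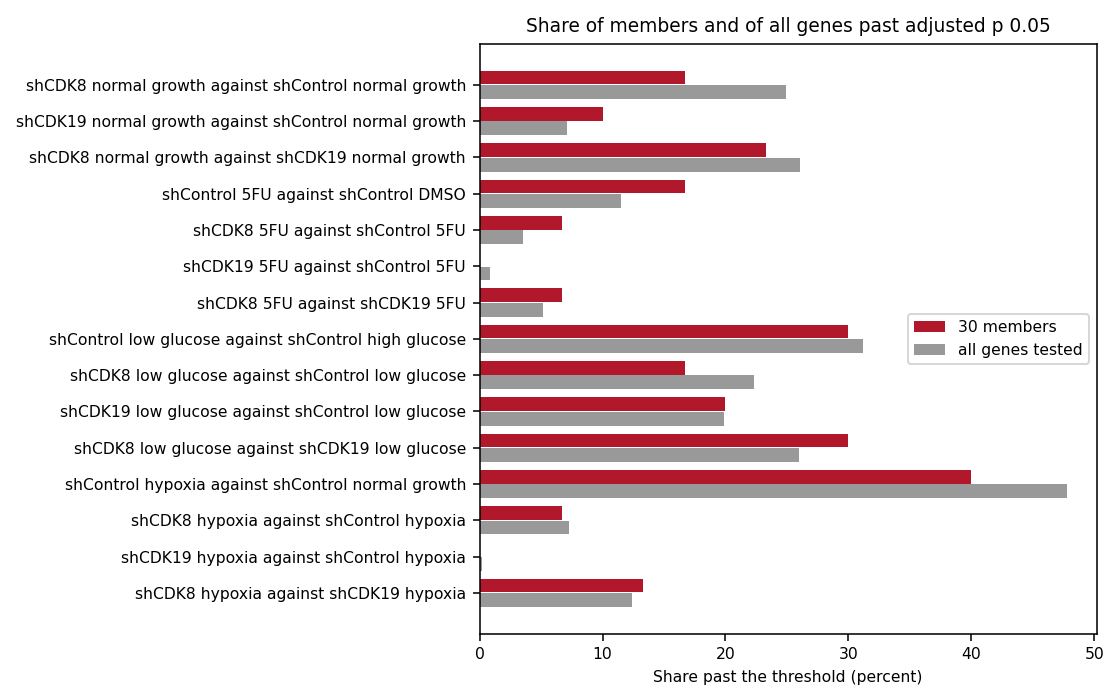
Share of the 30 intestinal differentiation genes (red) and of all 18404 genes tested (grey) past adjusted p 0.05 in 15 comparisons. The 2 bars lie near each other in most comparisons, for example 40% and 47.8% for shControl hypoxia against shControl normal growth.

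Whether the knockdown effect was the same under stress as in normal growth was tested in a fit of all 35 arrays. Stress and normal growth arrays belong to separate experiments. No knockdown line in DMSO, high glucose or matched normoxia was analysed, so stress and experiment cannot be told apart. For shCDK8 in 5FU, 4 of 30 genes differed, 1 higher and 3 lower, against 11.9% of all genes. The shCDK8 effect in 5FU minus that in normal growth was -2.26 ± 0.23 for CEACAM1 (adjusted p = 2.07e-07), -1.26 ± 0.15 for KRT20 and -0.77 ± 0.07 for KLF5. For CA2 it was 0.66 ± 0.13. The shControl level of CEACAM1 differed as well, with a mean of 7.25 ± 0.01 in 5FU (SD, n = 2) and of 6.16 ± 0.13 in normal growth (SD, n = 3). In low glucose 4 genes differed, 3 lower and 1 higher, against 12.8%. These tests share the arrays of normal growth. The differences were -0.97 ± 0.21 for CEACAM1, -0.96 ± 0.14 for KRT20, -0.79 ± 0.06 for KLF5 and 1.03 ± 0.11 for CA2. The shCDK8 effect on KLF5 was thus above 0 in normal growth (0.57) and below 0 in low glucose (-0.22). These 8 differences held in all 16 alternatives in 5FU and all 18 in low glucose.

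In hypoxia the shCDK8 effect differed for 3 genes, 2 lower and 1 higher, against 11.5%. The difference was -0.86 ± 0.15 for KLF4, -0.29 ± 0.07 for KLF5 and 0.82 ± 0.20 for SLC26A2. Without the 2 arrays that stood apart, KLF4 alone of these 3 was called. The effects on CEACAM1 and KRT20 in hypoxia were not called different from those in normal growth. For shCDK19 the effect in 5FU differed for 2 genes, against 4% of all genes, with CA2 at 0.80 ± 0.13 and KRT20 at -0.68 ± 0.15. In low glucose it differed for 2 genes, against 1.79%, with CA2 at 0.76 ± 0.11 and MUC13 at 0.49 ± 0.11. In hypoxia it differed for 0 genes in limma, against 2.08%, and 5 had an unadjusted p below 0.05, led by CA2 at -0.36 ± 0.13 (adjusted p = 0.156).

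**Figure D5:**
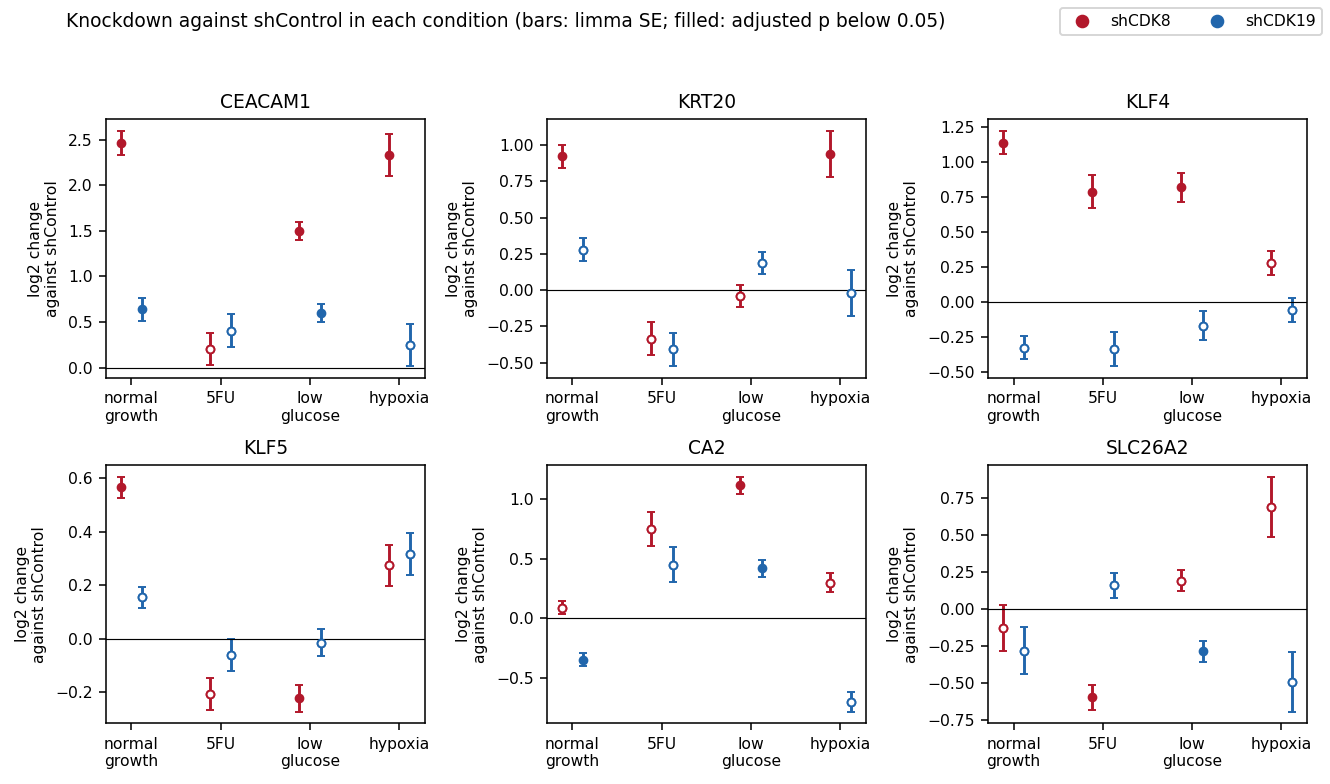
Log2 change of 6 genes in shCDK8 (red) and shCDK19 (blue) cells against shControl cells in normal growth, 5FU, low glucose and hypoxia, with limma SE as bars and filled points past adjusted p 0.05. The shCDK8 effect on CEACAM1 is 2.46 in normal growth, 0.20 in 5FU, 1.50 in low glucose and 2.34 in hypoxia.

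Over the 14 groups, CEACAM1 had its lowest mean in shControl normal growth (6.16) and its highest in shCDK8 hypoxia (8.84), a span of 2.68. KLF4 spanned 2.44, with the highest mean of 10.26 in shCDK8 low glucose and the lowest of 7.82 in shCDK19 normal growth. SLC26A2 spanned 2.21, with the highest mean of 9.16 in shControl high glucose and the lowest of 6.94 in shCDK19 hypoxia. CA2 spanned 1.90, with the highest mean of 10.85 in shCDK8 5FU and the lowest of 8.95 in shCDK19 hypoxia. KRT20 spanned 1.30, with its highest mean of 7.91 in shCDK8 normal growth. CDX2, in contrast, spanned 0.50 with a within-group SD of 0.10, and CLCA1 0.21 with a within-group SD of 0.11. GPA33, an intestinal surface antigen, spanned 0.45 with a within-group SD of 0.17, and AQP8, a colonocyte water channel, 0.58 with 0.17. TFF3, the goblet cell trefoil factor, spanned 0.46 with 0.14.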

How the data were processed

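The authors deposited log2 intensities from HuGene 1.0 ST arrays. Per the submitters' processing notes the software was Partek, with no version given, and the statistics were a one-way analysis of variance, per the series design. Background correction, summarisation and normalisation are not stated in the labels or headers used. Values end at a floor of 20 on the linear scale, which shortens differences of dim rows. The precision is limited by the number of arrays per group, 2 or 3.

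Of 32321 rows, 19158 had 1 gene symbol in the platform annotation, 1388 several and 11775 none. The 19158 gave 18404 genes, of which 637 had over 1 row and 112 were at the floor on all arrays. No array was identical to another (0 pairs), and all columns were mapped to samples.

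limma 3.58.1 in R 4.3.3, with data.table, version 1.17.8, fitted 1 mean per group within each experiment (normal growth, 5FU with DMSO, low with high glucose, hypoxia), with two-sided tests and Benjamini-Hochberg adjustment at 0.05. Hypoxia against normal growth and the 6 differences of effects came from a fit of all 35 arrays. The procedure was tested on simulated data. The members and gene lists were chosen with earlier results of these data known. Members were named by size of change, up to 8 called ones per comparison. Where none was called, the 2 of smallest p were named. From each list up to 4 genes were named. The further called members of longer comparisons were named after their values were seen.

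Alternatives were removal of genes at the floor, array medians subtracted, the replicate number as a block, all 35 arrays in 1 fit, array weights, analysis of variance without moderation, fits of the 2 groups only and leaving out each array. Leaving out the 2 arrays that stood apart and crossing replicate numbers were chosen after seeing the data. Replicate numbers were not taken as pairing samples, since in no comparison with 3 pairs did every pair's deviations correlate above 0.1.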

Additional observations from a re-analysis of the deposited data

Results flagged for a closer look

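For 15 values the effect of a knockdown differed between a stress condition and normal growth, by limma's test of the difference itself in a fit of all 35 arrays, adjusted over all 18404 genes. For shCDK8 in 5FU these were CEACAM1 (-2.263 ± 0.23, adjusted p = 2.07e-07), KRT20 (-1.257 ± 0.15, adjusted p = 2.54e-06), KLF5 (-0.7711 ± 0.07, adjusted p = 2.97e-08) and CA2 (0.6589 ± 0.13, adjusted p = 0.000696), as differences of log2 changes with SE. For shCDK8 in low glucose they were CEACAM1 (-0.9654 ± 0.21, adjusted p = 0.00204), KRT20 (-0.9631 ± 0.14, adjusted p = 1.71e-05), KLF5 (-0.7867 ± 0.06, adjusted p = 2.53e-09) and CA2 (1.025 ± 0.11, adjusted p = 5.27e-07). For shCDK8 in hypoxia they were KLF4 (-0.8576 ± 0.15, adjusted p = 0.000606), KLF5 (-0.2904 ± 0.07, adjusted p = 0.00723) and SLC26A2 (0.8173 ± 0.20, adjusted p = 0.00836).

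For shCDK19 the values in 5FU were CA2 (0.7968 ± 0.13, adjusted p = 0.000263) and KRT20 (-0.6848 ± 0.15, adjusted p = 0.00757), and in low glucose CA2 (0.7636 ± 0.11, adjusted p = 0.000244) and MUC13 (0.4874 ± 0.11, adjusted p = 0.0182). The shCDK8 and shCDK19 differences share the shControl arrays of each condition, and all of them share the shControl arrays of normal growth. Stress and normal growth arrays belong to separate experiments. In all of these values stress and experiment cannot be told apart.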

How the results depend on the processing

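The 86 calls of single genes kept their direction under every alternative run. They also kept their side of the threshold in 85 of 86 with genes at the floor removed, 84 of 86 with array medians subtracted, 79 of 86 with the replicate block, 52 of 59 with all 35 arrays in 1 fit, 73 of 86 with array weights, 70 of 86 without moderation, 441 of 546 leaving out 1 array, 39 of 48 without the 2 arrays that stood apart and 3 of 12 with the arrays of the 2 groups only. The cause of these moves was not tested. Calls among all genes moved too, for shCDK8 in normal growth from 4579 to 10954 with array weights. With array weights the count of called genes was 17 for shCDK8 and 6 for shCDK19 against shControl in normal growth, 16 between them, 10 for shCDK19 in low glucose, 3 for hypoxia against normal growth and 1 for shCDK8 in hypoxia. For the differences of effects it was 10 for shCDK8 in low glucose, 1 for shCDK8 in hypoxia, 5 for shCDK19 in 5FU and 5 for shCDK19 in low glucose. Without the 2 arrays that stood apart the counts were 10 for shCDK8 and 7 for shCDK19 in normal growth, 13 between them, 5 for hypoxia, and 1 each for the shCDK8 and shCDK19 differences in hypoxia. Of these 2 arrays only shCDK8 replicate 1 is in the normal growth fits. Without moderation the counts were 1 for 5FU, 0 for shCDK8 in 5FU, 0 between the lines in 5FU, 0 for shCDK8 in hypoxia and 1 between the lines in hypoxia. All 35 arrays in 1 fit gave 4 for shCDK8 and 2 for shCDK19 in 5FU, and 8 for shCDK8 and 4 for shCDK19 in hypoxia. For hypoxia against normal growth, subtracting array medians gave 19 and the arrays of the 2 groups only gave 3. Of all genes these fits called 10191 and 3242, against 8801 in the main fit.

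Replicate numbers were not taken as pairs, and whether they pair the samples cannot be told from these values. As a replicate block they gave 1 call for shCDK8 in 5FU and 1 for shCDK8 in hypoxia, and moved no other count by over 1.5 times. Same-numbered shCDK8 and shControl arrays in hypoxia correlated at -0.496, and with numbers crossed 0 genes of the set were called there. Same-numbered shCDK19 and shControl arrays in hypoxia correlated at 0.410, and shCDK8 and shCDK19 arrays in 5FU at 0.128. Leaving out 1 array gave 4 to 10 calls for shCDK8 and 1 to 2 for shCDK19 in normal growth, 5 to 13 between them, 0 to 5 for 5FU, 0 to 0 for shCDK8 and 0 to 0 for shCDK19 in 5FU and 0 to 1 between them. It gave 7 to 9 for low glucose, 5 to 5 for shCDK8, 5 to 7 for shCDK19 and 8 to 13 between them. It gave 5 to 21 for hypoxia, 0 to 15 for shCDK8, 0 to 8 for shCDK19 and 0 to 0 between them. For the differences it gave 4 to 5, 4 to 4 and 1 to 13 for shCDK8 in 5FU, low glucose and hypoxia, and 1 to 2, 1 to 2 and 0 to 11 for shCDK19. The 10 and 13 in normal growth came without shCDK8 replicate 1, with 6713 and 7349 of all genes called. In 5FU and hypoxia, leaving out 1 array left 1 array in that group, and calls among all genes moved as well. The 0 for 5FU came without either shControl 5FU array, and the 0 for shCDK8 in hypoxia without either shCDK8 array. The counts of 21, 15, 8, 13 and 11 came without shControl hypoxia replicate 2, and the 5 for hypoxia and the 1 for the shCDK8 difference without replicate 1.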
